A study of Homo sapiens with 4 samples.

Results

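Ferritin and the genes that bring iron into a cell, release it and sense it are described here in human cells given extra U1 snRNA. The set holds 10 genes of the 25283 rows in the deposited table, FTL, FTH1, TFRC, SLC11A2, SLC40A1, NCOA4, IREB2, ACO1, HMOX1 and FBXL5, found by symbol. They were chosen by earlier results of this same comparison, so their values are given as a description and no test is made on them. The cells derived from the human embryonic stem cell line H1 and were taken through neural progenitors and a neuron maturation medium. In 2 control libraries they carried an empty vector (wild type), and in 2 U1_OE libraries a lentiviral vector for overexpression of U1 snRNA, the RNA that pairs with 5′ splice sites, in each case 36 hours before RNA was taken. The treatment text is the same for both groups and names the overexpression vector, so the grouping rests on titles and genotype labels. All groups are 1 cell line, and nothing in the labels says that libraries of a group are separate cultures, so the spread between them may be technical. U1 snRNA itself was not analysed here.

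Iron enters most cells bound to transferrin through the transferrin receptor TFRC, and SLC11A2 (DMT1) moves it out of endosomes into the cytosol. Surplus iron is stored in ferritin, a shell of heavy chains (FTH1), which oxidise the iron, and light chains (FTL), which help the mineral core to form. SLC40A1 (ferroportin) exports iron, NCOA4 carries ferritin to lysosomes, and HMOX1 frees iron from heme. When iron is short, the iron regulatory proteins ACO1 (IRP1) and IREB2 (IRP2) bind hairpins called iron-responsive elements. In the 5′ UTR of ferritin or ferroportin mRNA this blocks translation, and in the 3′ UTR of TFRC mRNA it slows decay. FBXL5 is the iron-sensing subunit of a ubiquitin ligase that removes IREB2.

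The hairpins are shown because the iron regulatory proteins are known to bind such sites in some of these mRNAs. The mRNA sequences of coding transcripts of GENCODE v29 (GRCh38) were searched for CNNNNNCAGTGNNNNNN. In it the 5 bases before the CAGTGN loop had to pair with the 5 bases after it, G with T allowed. Capitals mark the loop, and each site is 29 bases of the mRNA written with T.
FTL, 5′ UTR: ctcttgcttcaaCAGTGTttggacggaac
FTH1, 5′ UTR: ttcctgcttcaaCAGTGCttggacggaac
SLC40A1, 5′ UTR: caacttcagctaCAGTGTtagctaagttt
TFRC, 3′ UTR, site 1: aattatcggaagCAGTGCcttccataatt
TFRC, 3′ UTR, site 2: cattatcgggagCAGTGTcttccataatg
TFRC, 3′ UTR, site 3: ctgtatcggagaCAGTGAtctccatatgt
TFRC, 3′ UTR, site 4: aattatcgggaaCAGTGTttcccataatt
SLC11A2, 3′ UTR: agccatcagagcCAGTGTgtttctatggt

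The FTL site lies in exon 1 at chr19:48965335-48965363 on the plus strand, and the FTH1 site in exon 1 at chr11:61967574-61967602 on the minus strand. The SLC40A1 site is in exon 1 at chr2:189580661-189580689, and the 4 TFRC sites are in exon 18 between chr3:196050463-196050491 and chr3:196050979-196051007, all on the minus strand. The SLC11A2 site, at chr12:50988269-50988297 in exon 15, has 1 unpaired position of 5 and is carried by 5 of the 11 coding transcripts of the gene, so a count per gene mixes mRNAs with and without it. With all 5 positions paired, 4 of the 10 genes had a match in a UTR, against 127 of 12733 tested coding genes (0.997%). The 4 are FTL, FTH1, SLC40A1 and TFRC, mRNAs already known for this hairpin, so their share follows from the choice of genes. A match describes letters only, and with 1 unpaired position allowed 7 of the 10 genes and 6.78% of all tested coding genes had one. The added genes are SLC11A2, ACO1 and IREB2, the last 2 with a 3′ UTR match in 1 of 3 and 1 of 2 coding transcripts. Of these only the SLC11A2 site is printed, as a hairpin known for this mRNA.

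Ferritin mRNA was among the most abundant in every library and was lower in both U1_OE libraries. FTL (chromosome 19, 48965301 to 48966878, plus strand) had 25259.9 and 19986 CPM in control against 10347 and 9934 CPM in U1_OE. CPM relates a gene’s count to the library total, scaled here between libraries by TMM. Both U1_OE libraries lay below both control libraries and close to each other. Its group means were 22623 ± 3729 CPM in control and 10141 ± 292 CPM in U1_OE (SD, n = 2), a ratio of control to U1_OE of 2.23. Among all rows FTL ranked 2 and 3 in control against 6 and 5 in U1_OE.

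FTH1 (chromosome 11, 61959718 to 61967660, minus strand) had 10835 and 7571 CPM in control against 3253 and 2854 CPM in U1_OE. The groups were again apart, with the lowest control library at 2.33 times the highest U1_OE library. The means were 9203 ± 2308 and 3054 ± 282 CPM (SD, n = 2), a ratio of 3.01, and the rank went from 6 and 9 in control to 22 and 23 in U1_OE. On the log2 scale the edgeR fit gave -1.16 ± 0.17 for FTL and -1.59 ± 0.22 for FTH1 (SE). Among the 1537 tested genes with a mean of at least 100 CPM, a limit set after the values were seen, FTH1 had the second lowest log2 fold change and FTL ranked 10 from the lowest.

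Of all counts, FTL and FTH1 together took 3.59% and 2.83% in control against 1.32% and 1.28% in U1_OE. Per kilobase of exon, FTL exceeded FTH1 by 4.29 and 4.86 times in control and by 5.86 and 6.41 times in U1_OE. The light-to-heavy ratio was thus higher in both U1_OE libraries than in either control library. All exons of FTH1 together span 1617 bases and its longest coding transcript 1229, so the size of this ratio depends on the length used. The order of the libraries in it does not. GENCODE v29 annotates 41 ferritin pseudogenes, 25 of FTH1 and 16 of FTL, which are near-identical copies of the mRNAs, and 0 of them has a row among those analysed here. The assignment of reads shared with these copies is unknown, so both ferritin levels are uncertain to that extent. BEST1, on the other strand, overlaps FTH1, and its mean was 0.0325% of that of FTH1.

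**Figure D1:**
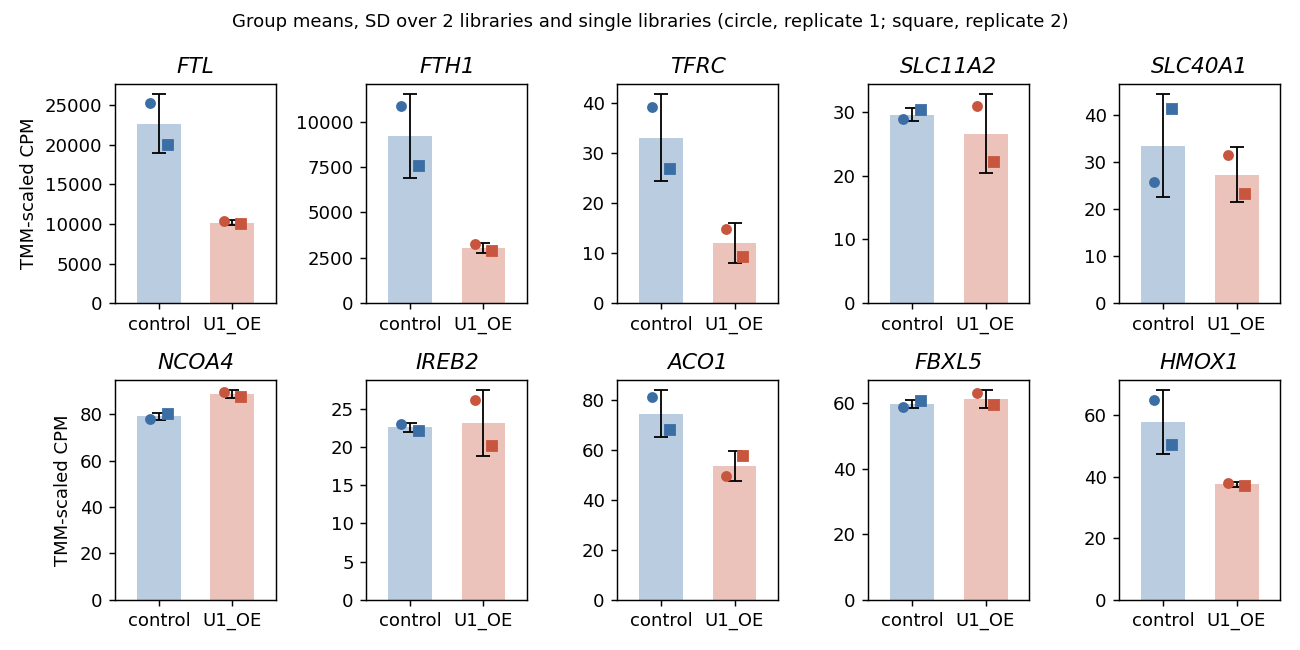
TMM-scaled CPM (y axis, from 0, a separate scale for each gene) of the 10 iron-handling genes in control and U1_OE libraries. Bars are means over 2 libraries, error bars are SDs, and points are single libraries. FTL, FTH1, TFRC, ACO1 and HMOX1 have both U1_OE libraries below both control libraries, NCOA4 has both above, and the other 4 overlap.

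Of the uptake genes, TFRC was lower in U1_OE and SLC11A2 was not apart. TFRC (chromosome 3, 196027183 to 196082189, minus strand) had 39.3 and 26.9 CPM in control against 14.8 and 9.28 CPM in U1_OE. The highest U1_OE library was below the lowest control library. Its means were 33.1 ± 8.72 and 12.1 ± 3.93 CPM (SD, n = 2), a ratio of 2.74, with a log2 fold change of -1.46 ± 0.31 (SE).

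The storage genes and TFRC were thus lower together in mRNA level. The ratio of FTH1 to TFRC per kilobase was 908 and 925 in control and 722 and 1013 in U1_OE libraries. The U1_OE libraries lay on either side of the controls in this ratio. In bulk samples, fewer cells of a type and less RNA per cell cannot be told apart.

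SLC11A2 (chromosome 12, 50979401 to 51028566, minus strand), the endosomal iron transporter, had 28.8 and 30.3 CPM in control against 31.0 and 22.2 CPM in U1_OE. One U1_OE library was above and the other below both controls, and the log2 fold change was -0.16 ± 0.20 (SE). SLC40A1 (chromosome 2, 189560579 to 189583758, minus strand), the iron exporter, had 25.7 and 41.1 CPM in control against 31.3 and 23.2 CPM in U1_OE. Its control libraries differed from each other by more than the group means, 33.4 ± 10.9 and 27.3 ± 5.74 CPM (SD, n = 2). It carries a hairpin of the same kind as ferritin in its 5′ UTR, and its log2 fold change was -0.29 ± 0.29 (SE).

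NCOA4 (chromosome 10, 46005088 to 46030714, minus strand), the receptor that delivers ferritin to lysosomes, had 78.0 and 80.3 CPM in control against 89.9 and 87.7 CPM in U1_OE. It was the only one of the 10 genes with both U1_OE libraries above both controls. The distance was small, with means of 79.1 ± 1.62 and 88.8 ± 1.52 CPM (SD, n = 2) and a log2 fold change of 0.17 ± 0.12 (SE).

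The 2 iron regulatory proteins differed in pattern. ACO1 (chromosome 9, 32384603 to 32454769, plus strand), which is a cytosolic aconitase when it holds an iron-sulfur cluster, had 81.0 and 67.8 CPM in control against 49.4 and 57.7 CPM in U1_OE. The groups were apart, at a ratio of 1.39 and a log2 fold change of -0.47 ± 0.16 (SE). IREB2 (chromosome 15, 78437431 to 78501456, plus strand) had 23.0 and 22.2 CPM in control against 26.2 and 20.1 CPM in U1_OE, so its U1_OE libraries enclosed the controls. Its log2 fold change was 0.03 ± 0.18 (SE), and its level per kilobase relative to ACO1 was 0.226 and 0.260 in control and 0.421 and 0.278 in U1_OE libraries.

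FBXL5 (chromosome 4, 15604539 to 15681679, minus strand) had 59.0 and 60.5 CPM in control against 63.1 and 59.4 CPM in U1_OE. These ranges overlap, and the log2 fold change was 0.04 ± 0.12 (SE). FAM200B overlaps FBXL5 on the other strand at about the same level, 62.0 and 57.1 CPM in control against 54.3 and 68.6 CPM in U1_OE, and whether counting used strand is unknown, so their reads cannot be told apart where they overlap.

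HMOX1 (chromosome 22, 35380361 to 35394214, plus strand), the inducible heme oxygenase, had 65.0 and 50.4 CPM in control against 38.1 and 37.0 CPM in U1_OE. Both U1_OE libraries were below both controls, with means of 57.7 ± 10.3 and 37.5 ± 0.743 CPM (SD, n = 2), a ratio of 1.54 and a log2 fold change of -0.62 ± 0.17 (SE). In each of FTL, FTH1, TFRC, ACO1 and HMOX1 control replicate 1 was the highest of the 4 libraries.

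**Figure D2:**
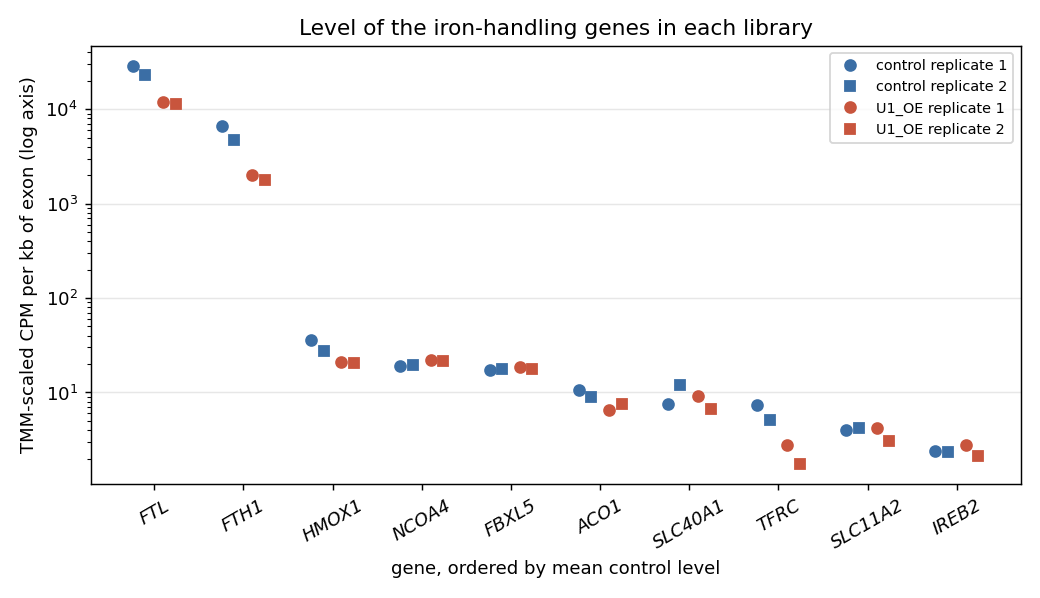
Level of each of the 10 genes (x axis) in each library, in TMM-scaled CPM per kilobase of exon (y axis, log scale); blue points are control and red points U1_OE libraries. FTL and FTH1 stand at 1765 and above and the other 8 genes at 35.7 and below.

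Levels between genes were compared per kilobase of exon. In control libraries the order of mean level was FTL (25766 CPM per kb), FTH1 (5691), HMOX1 (31.7), NCOA4 (19.4), FBXL5 (17.7), ACO1 (9.85), SLC40A1 (9.71), TFRC (6.22), SLC11A2 (4.06) and IREB2 (2.38). ACO1 and SLC40A1 overlapped between libraries and the other neighbours did not. In the U1_OE libraries HMOX1 (20.6) lay just under NCOA4 (21.8). SLC40A1 (7.93) lay above ACO1 (7.09) there, though the libraries of these 2 genes overlapped. TFRC (2.27) lay under SLC11A2 (3.65) and IREB2 (2.44) and had the lowest mean of the 10, though its libraries overlapped those of IREB2. With the length of the longest coding transcript in place of all exons, TFRC stood below SLC11A2 in control replicate 2 as well, so the order of these 2 genes depends on the length used.

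All 10 genes passed the filter on low counts. Both U1_OE libraries were below both controls in 5 of the 10 and above them in 1. Over all 17317 tested genes 22% were lower in this sense, 19.7% higher and 41.8% either. The median log2 fold change was -0.385 over the 10 genes and -0.00548 over all tested genes. Because the genes were chosen with this comparison known, nothing is read from these counts or from those of the models.

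With p adjusted over all genes (edgeR, quasi-likelihood, Benjamini-Hochberg), 0 of the 10 were called, as were 0% of all genes. At an unadjusted edgeR p under 0.05, 5 of the 10 were lower and 0 higher, against 4.72% and 4.36% of all genes. DESeq2 called FTL, FTH1 and TFRC lower and 0 of the 10 higher, against 0.47% and 0.614% of 17440 genes, or 1.08% in either direction. The DESeq2 call of FTH1 was kept with each library left out. That of FTL was lost without control replicate 1, where its log2 fold change was -0.96. That of TFRC was lost without control replicate 1 (-1.15), control replicate 2 (-1.70) and U1_OE replicate 2 (-1.15).

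**Figure D3:**
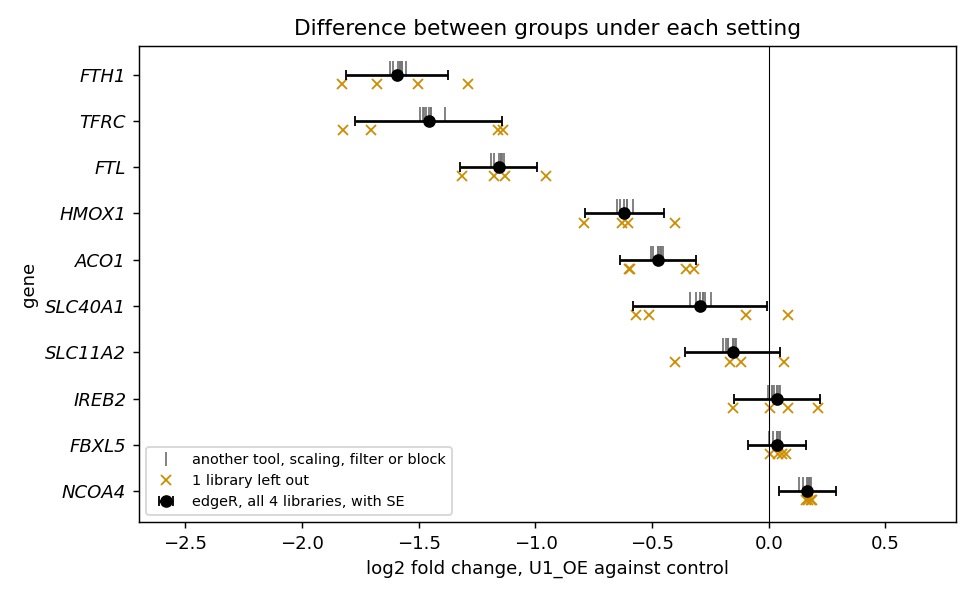
Log2 fold change of U1_OE against control (x axis) for each of the 10 genes (y axis). Black points with bars are the edgeR fit with its SE, grey ticks other tools, scalings, filters or the replicate block, and crosses fits without 1 library. FTH1, TFRC and FTL lie at or below -0.96 in each of them, and SLC40A1, SLC11A2 and IREB2 fall on both sides of 0.

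Other transcripts moved with ferritin over the 4 libraries. By the root mean square distance between log2 profiles centred on their means, of CPM + 1, over 3028 genes of at least 50 CPM, those nearest to FTL were NEAT1 (0.067), ENSG00000280614 (0.092), HTR2B (0.11), TALAM1 (0.12) and HMGCS1 (0.15). NEAT1 is the nuclear RNA that scaffolds paraspeckles, TALAM1 is antisense to MALAT1, and HMGCS1 is an enzyme of cholesterol synthesis. Those nearest to FTH1 were TP53I11 (0.13), ENSG00000280800 (0.17), MAN1C1 (0.18), ENSG00000280614 (0.19) and NEAT1 (0.21), with FTL sixth. With 4 libraries in 2 groups, such nearness mostly restates the difference between groups.

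The 2 identifiers without a symbol lie within annotated copies of 18S ribosomal RNA. Together with ENSG00000281181, the 3 rows of this kind took 1.37% and 1.04% of all counts in control against 0.569% and 0.474% in U1_OE. NEAT1 had 404 and 351 CPM in control against 160.1 and 159 CPM in U1_OE, and MALAT1, another nuclear RNA, 989.9 and 873 against 463 and 708 CPM. The counts in these ribosomal RNA rows moved with ferritin, and their part in the result was not tested. Transcript length was also compared, after the values were seen. The 267 other coding genes of at least 100 CPM whose longest transcript is no longer than that of FTH1 (1229 bases) had a median log2 fold change of 0.04 and a range of -1.09 to 1.09. The other 1205 coding genes at that level had a median of 0.11 and a range of -1.69 to 2.80. Whether length bears on the ferritin values was not tested.

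**Figure D4:**
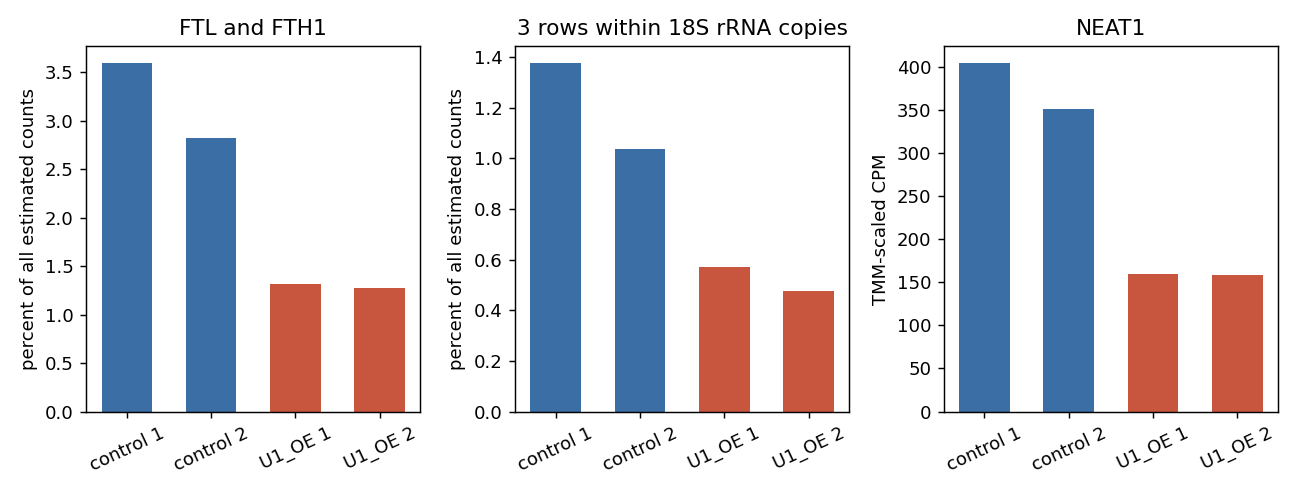
Share of all estimated counts (y axis, percent) taken by FTL with FTH1 and by the 3 rows within 18S ribosomal RNA copies, and TMM-scaled CPM of NEAT1, in each of the 4 libraries (x axis; blue, control; red, U1_OE). Each is lower in both U1_OE libraries, and in each control replicate 1 is the highest.

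Beyond the 10 genes, 144 other genes of iron and heme metabolism and of oxidative stress were listed in 9 groups, of which 130 were tested. edgeR called 0 of them over all genes (lowest adjusted p = 0.459) and DESeq2 called 0. At an unadjusted edgeR p under 0.05, 11 were lower and 3 higher, 10.8% against 9.08% of all genes. The libraries of the groups were apart in 62 (47.7%), 31 in each direction, against 41.8% of all genes, 22% lower and 19.7% higher, and the median log2 fold change was 0.01. For each list, genes among the 3 with the smallest p follow as values, with EPAS1 added after its value was seen, and none of them is a call.

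In the list of iron uptake, reduction and export, 9 of 17 tested genes had a negative log2 fold change, with a median of -0.00282. STEAP4, a metalloreductase, had -1.37 ± 0.35 (SE), MCOLN1, a lysosomal cation channel, -0.49 ± 0.15, and CP, the ferroxidase ceruloplasmin, -2.31 ± 0.78. CP was low, with 1.06 and 2.71 CPM in control against 0.493 and 0.262 CPM in U1_OE.

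In heme synthesis and transport 10 of 18 genes were negative. FECH, the ferrochelatase that inserts iron into heme, had 40.9 and 46.9 CPM in control against 27.8 and 27.0 CPM in U1_OE, a log2 fold change of -0.68 ± 0.14 (SE). PPOX, the enzyme of the step before it, had -0.56 ± 0.21 and the mitochondrial transporter ABCB10 -0.74 ± 0.29. Of the 4 heme breakdown genes 2 were negative: BLVRB, a biliverdin reductase, had 94.4 and 74.7 CPM in control against 49.8 and 56.5 CPM in U1_OE (-0.67 ± 0.17), and BLVRA, the other biliverdin reductase, -0.27 ± 0.16. HMOX2, the constitutive heme oxygenase, had 0.28 ± 0.12, while the inducible HMOX1 was -0.62.

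Mitochondrial iron and iron-sulfur cluster genes had 20 of 29 positive and a median of 0.07. The co-chaperone HSCB had 0.49 ± 0.19 (SE) and the cluster assembly gene ISCA2 -0.52 ± 0.25. Partners of IRP2 degradation and ferritin autophagy had 8 of 12 positive, with a median of 0.06. ATG5, ATG16L1 and RB1CC1, all of autophagosome formation, had 0.18 ± 0.15, 0.19 ± 0.23 and -0.23 ± 0.22.

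Other mRNAs known for iron-responsive elements had values nearer 0 than ferritin. EPAS1 had 0.04 ± 0.13 (SE), CDC42BPA 0.17 ± 0.13 and CDC14A, at about 1 CPM, -0.38 ± 0.60. Among the 20 other tested genes with a fully paired match in the 5′ UTR, the median was -0.03, with 7 lower and 3 higher in both U1_OE libraries. For the 103 other genes with a match in the 3′ UTR it was -0.03, with 28 lower and 24 higher. Over all tested genes 22% were lower and 19.7% higher in this sense.

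FTL, FTH1 and HMOX1 are known targets of NRF2, the factor of the antioxidant response. Of the 22 tested genes of the NRF2 target list 15 were negative, with a median of -0.07. SQSTM1, an autophagy receptor, had 349 and 249 CPM in control against 195 and 193 CPM in U1_OE (-0.63 ± 0.20, SE), and MAFG, a small MAF partner of NRF2, -0.41 ± 0.15. AKR1C1 had 0.64 ± 0.22, and its reads can be shared with the near-identical AKR1C2. The summed level of the list was 3098 and 2203 CPM in control against 2061 and 2614 CPM in U1_OE, so this sum did not separate the groups. Of the 22 single genes 5 were lower and 3 higher in both U1_OE libraries, against 22% and 19.7% of all tested genes. Of the 8 regulators 4 were negative, with MAFF at 1.49 ± 0.58, MAFK at 0.53 ± 0.27, and NFE2L1 at -0.29 ± 0.13. MAFF had 4.36 and 2.65 CPM in control against 5.11 and 14.5 CPM in U1_OE, so its value rests mostly on U1_OE replicate 2.

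In the list of ferroptosis and lipid peroxide defence, 8 of 16 genes were negative. LPCAT3, a phospholipid acyltransferase, had 21.1 and 24.8 CPM in control against 37.0 and 34.4 CPM in U1_OE (0.64 ± 0.15, SE). SLC3A2, a subunit of the cystine carrier, had -0.60 ± 0.17 and the lipoxygenase ALOX5 -1.80 ± 0.59.

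**Figure D5:**
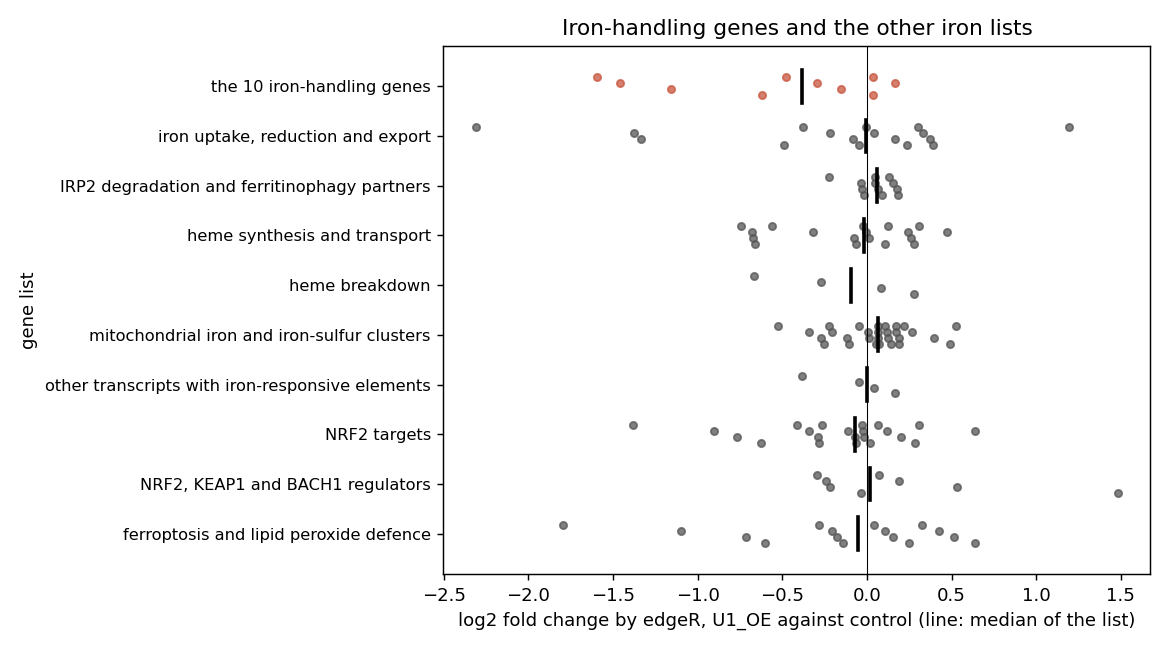
Log2 fold change by edgeR of U1_OE against control (x axis) for the 10 iron-handling genes (red) and the tested genes of 9 other lists (grey); vertical bars are medians. The median of the 10 genes is -0.385 and those of the other lists lie between -0.09 and 0.07.

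The cells are labelled neurons, and markers of neurons were uneven while those of mesenchymal cells led. Of 18 measured neuronal markers 12 reached 1 CPM in all 4 libraries, led by UCHL1 (1093 and 693 CPM in control, 791 and 1043 CPM in U1_OE), while DCX and STMN2 stayed under 0.3 CPM. The summed neuronal list was 1616 and 1283 CPM in control against 1830 and 2012 CPM in U1_OE. DESeq2 called TUBB3, a neuronal tubulin, and GAP43, a growth cone protein, higher in U1_OE, against 0.614% of all genes, and edgeR called neither. TUBB3 had 159 and 104 CPM in control against 264 and 338 CPM in U1_OE, and GAP43 had 3.30 and 1.27 against 46.9 and 11.5 CPM. Of the 14 tested neuronal markers 8 had a positive and 6 a negative log2 fold change. Groups were apart in 3 higher (TUBB3, GAP43 and THY1) and 3 lower (NCAM1, SYP and ENO2), against 19.7% and 22% of all tested genes. THY1, which is also in the mesenchymal list, had 315 and 450 CPM in control against 693 and 585 CPM in U1_OE.

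All 20 mesenchymal markers reached 10 CPM, with sums of 100561 and 113826 CPM in control against 117648 and 111050 CPM in U1_OE, led by COL1A1. Of these 16 had a positive log2 fold change (median 0.36). Groups were apart in 11 higher and 1 lower, against 19.7% and 22% of all tested genes. DESeq2 called LOX, POSTN and COL6A1 higher, against 0.614% of all genes. By edgeR they had 1.11 ± 0.14, 1.23 ± 0.34 and 0.51 ± 0.13 (log2, SE), and edgeR called none of them. Markers of macrophages, cells rich in ferritin, were low: PTPRC, ITGAM, C1QA, C1QB and P2RY12 had no row among those analysed here, and TYROBP was at 0 in 3 libraries. Their summed list was 50.7 and 60.5 CPM in control against 78.7 and 97.3 CPM in U1_OE, most of it CD68.

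Endothelial markers, led by PECAM1, summed to 32.2 and 38.0 CPM in control against 59.2 and 93.9 CPM in U1_OE, and DESeq2 called FLT1 higher (2.33 ± 0.25 by edgeR, log2, SE). Of 4 tested endothelial markers 3 were positive and 1, KDR, negative. KDR had 0.706 and 0.940 CPM in control against 0.308 and 0.315 CPM in U1_OE. CDH5, too low to be tested, had 0.412 and 0.276 CPM in control against 0.0616 and 0.0524 CPM in U1_OE. Astrocyte markers summed to 1201 and 1419.7 CPM in control against 1029 and 1032 CPM in U1_OE, while DESeq2 called SOX9 higher (1.32 ± 0.21). Most of this sum was GJA1, with 1178 and 1384 CPM in control against 973 and 980 CPM in U1_OE. Of the 5 tested astrocyte markers only GJA1 was lower in both U1_OE libraries, and 4 were higher in both. Over all tested genes 22% were lower and 19.7% higher in this sense. The neuronal, macrophage and endothelial sums were thus higher and the astrocyte sum lower in both U1_OE libraries. Each sum follows its most abundant genes, and single genes of the neuronal, endothelial and astrocyte lists went both ways. The part of these markers in the ferritin result was not tested. Progenitor markers (led by NES) summed to 48.8 and 46.7 against 49.8 and 58.3 CPM, again apart. Of 4 tested progenitor markers 2, PAX6 and SOX2, were lower in both U1_OE libraries and 1, NES, was higher. Over all tested genes these shares were 22% and 19.7%. Sums of oligodendrocyte (124 to 151 CPM, CNP), pluripotent (10.2 to 17.6, DPPA4) and erythroid markers (4.42 to 6.25, EPOR) overlapped between groups. The DESeq2 calls among markers were named after their values were seen, and DESeq2 called 0.614% of all genes higher. Totals were 16713505 to 19057423 counts per library, so FTL rests on 168013 to 429112 counts per library, FTH1 on 52828 to 184059 and TFRC on 177 to 667.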

How the data were processed

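RNA-seq was made from 2 control and 2 U1_OE libraries. The authors deposited estimated counts per gene, not normalised. Per the submitters' processing notes the tools were STAR, featureCounts, Trim Galore and DESeq2, and the build hg38; no versions are named. Of values above 0, 1.99% lie within 0.01 of a whole number. The origin of the fractions is not given.

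Values were rounded to whole numbers. edgeR 4.0.16 in R 4.3.3 (filterByExpr, TMM, quasi-likelihood test) compared U1_OE with control over 17317 genes, p adjusted by Benjamini-Hochberg, threshold 0.05. SEs were worked back from the F statistic. DESeq2 1.42.0 and limma 3.58.1 (voom) were alternatives. The procedure was tested on simulated data. Exons, UTRs and coordinates came from GENCODE v29, gene spans of 18S copies and promoters from RefSeq (GRCh38.p14).

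The 10 genes and all lists were chosen with earlier results of these data known. The naming rule took all 10 genes, called genes of each list or else the 3 with the smallest p, the 5 genes nearest to FTL and to FTH1 in profile, and the leading gene of each marker list. Some genes that this rule takes are not reported here.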

Additional observations from a re-analysis of the deposited data

How the results depend on the processing

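edgeR called 0 genes over all genes, and 0 of the other iron genes, with scaling by RLE or by library size, without the filter, with genes limited to means of 50 counts or more, with the replicate block or any 1 library left out, and limma-voom called 0 as well (1572 genes had an unadjusted edgeR p under 0.05). DESeq2 called 189 genes, 107 higher and 82 lower, none of them among the other iron genes. The number of the 10 genes with groups apart stayed 6 under each scaling, against 41.8% of all tested genes with TMM. It was also 6 with the 5 genes of the largest count shares left out of the scaling, a setting added after the data were seen. The share over all genes was computed with TMM alone, so nothing is read from these counts. With a library left out the count is not given, because a lone library is less easily overlapped. Of 120 single-gene alternatives 114 moved by at most the SD between libraries, and 5, of SLC40A1, SLC11A2, IREB2 and FBXL5, had another sign than the reported value. Scaling moved the median of all genes from -0.01 to 0.01 (RLE) or -0.04 (library size).

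The labels give both groups the same replicate numbers without saying what they share. Deviations of same-numbered libraries from their group means correlated at -0.137 over 15164 genes, so the numbers are not taken to pair them. With the replicate block, FTL, FTH1 and TFRC had -1.15, -1.57 and -1.47. Adding the rows of ferritin pseudogenes to FTL and FTH1 could not be run, because 0 of them had a row among those analysed here. Precision is limited by the 2 libraries per group, and depth matters most for CP, STEAP4 and CDC14A.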

Other observations

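Promoter windows of 300 bases (250 before to 50 after the start site, RefSeq, GRCh38.p14) were held for 8 of the 10 genes and searched on both strands. The core of the antioxidant response element, TGACNNNGC, occurred in 1 of the 8, FBXL5, and in 13.6% of 27305 promoters. The core of the hypoxia response element, ACGTG, which is also part of the CACGTG box, occurred in 3 of the 8, FTL, TFRC and FBXL5, and in 21.6% of promoters. The ACGTG matches of all 3 genes are shown, of which FTL and TFRC were lower in U1_OE and FBXL5 overlapped between groups. Capitals mark the match, which in FTL is on the opposite strand and in FBXL5 lies in a CACGTG box, so that both strands match, and overlaps the TGACNNNGC match.
FTL, chr19:48965290-48965310: gccctagcCACGTcccctcgc
TFRC, chr3:196082166-196082186: gcgagcgtACGTGcctcagga
FBXL5, chr4:15655464-15655484: gcccggtcACGTGggccgcag

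These are matches of letters in short windows, and no binding was measured.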
